A study of Drosophila melanogaster with 2 samples.

Results

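The genes described here carry the symbols of Mediator and RNA polymerase II subunits in *Drosophila melanogaster*. They were chosen by symbol, as the protein-coding genes whose symbol starts with MED and a digit or with Polr2, together with *kto*, *skd*, *CycC* and *Cdk8*. The rule found 42 genes of 13945 protein-coding genes on the 6 assembled arms, 29 for Mediator and 13 with a Polr2 symbol. Among the 13, *Polr2M* is placed in no group of polymerase subunits here. The fly counterpart of MED29 is called *ix* and lies outside the rule.

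RNA polymerase II transcribes the protein-coding genes of the nucleus. Mediator is the large complex that connects DNA-bound transcription factors with the polymerase at the promoter. Its head and middle modules bind the polymerase, its tail contacts activators, MED14 holds these parts together, and a detachable kinase module with Cdk8 and its cyclin regulates the whole. Genes for both are generally counted among the housekeeping genes, which are active in most cells of the embryo.

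The study mapped a zinc finger protein, CG31388, on the chromatin of whole embryos by ChIP-seq, in which DNA fragments bound to a protein are precipitated and sequenced. CG31388 belongs to the ZAD zinc finger family of insects. All embryos, of both sexes and 0 to 16 hours old, came from 1 transgenic strain named CG31388-GFP, in which the factor carries green fluorescent protein at its C-terminus, and the antibody was against GFP. Both libraries, called biological replicates 2 and 4, belong to this 1 group, so that no contrast between conditions exists. The labels call the samples whole organisms, so that a region bound in few cells and one bound weakly in many cannot be told apart. No untagged embryos were analysed here.

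A pooled list of 28750 candidate regions holds both peaks and background, and 1872 of them are reproducible peaks by the irreproducible discovery rate (IDR), which compares the replicates. The signal is the enrichment that the authors deposited for each region, on a scale that is not stated. The peaks ran from a signal of 53.8 upwards, and the strongest candidate that was no peak was just below it, with 53.76 against 53.78. Depth is unknown, and the 2 libraries name different protocol documents, so a batch and the replicate cannot be told apart. A gene is called occupied here when the summit of a reproducible peak lay within 500 bp of any of its transcription start sites (TSSs). Coordinates are on the dm6 build and names are those of Ensembl release 115.

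Sequences at the summits are shown for the members with a peak, since their richness in A and T is one of the features described here. They were read from the RefSeq Release 6 genome, the same assembly as dm6. Each line gives the 61 bp centred on the summit, 5′ to 3′ on the strand of the member gene, and the capitals mark the longest unbroken run of A and T, the first one where runs tie.
MED27 (chr3R:5654997-5655057, plus strand): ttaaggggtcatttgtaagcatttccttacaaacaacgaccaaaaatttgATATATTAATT
MED30 (chr3L:654251-654311, minus strand): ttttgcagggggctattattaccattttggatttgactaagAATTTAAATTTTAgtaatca
MED17 (chr3R:18188884-18188944, plus strand): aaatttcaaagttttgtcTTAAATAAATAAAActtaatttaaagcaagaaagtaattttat
Polr2B (chr3R:14125715-14125775, plus strand): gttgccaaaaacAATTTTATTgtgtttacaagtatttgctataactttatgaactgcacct
MED7 (chr3R:10761074-10761134, minus strand): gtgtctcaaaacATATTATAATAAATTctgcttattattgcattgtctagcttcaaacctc
MED31 (chr3R:4641744-4641804, plus strand): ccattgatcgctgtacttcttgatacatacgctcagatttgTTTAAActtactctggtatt
skd (chr3L:21027759-21027819, minus strand): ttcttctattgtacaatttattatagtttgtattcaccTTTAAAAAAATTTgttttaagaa
Polr2F (chr3R:5371681-5371741, plus strand): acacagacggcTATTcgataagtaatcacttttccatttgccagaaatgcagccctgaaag
Polr2J (chr2L:17410448-17410508, minus strand): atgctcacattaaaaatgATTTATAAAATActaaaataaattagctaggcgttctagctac
MED25 (chr3R:20008832-20008892, plus strand): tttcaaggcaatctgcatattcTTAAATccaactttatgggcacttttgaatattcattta
The *MED17* window was the richest in A and T, with a GC content of 14.8%, followed by *skd* with 18.0%. The *Polr2F* window was the least so, with 42.6% and a longest run of 4 bases. The *Polr2H* window lies wholly in an annotated 5′ UTR of its neighbour CG11247 and is described by its GC content only, 24.6%.

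Peaks of CG31388 lay at 11 of the 42 promoters. Of these genes 7 encode Mediator subunits (*MED7*, *MED17*, *MED25*, *MED27*, *MED30*, *MED31* and *skd*) and 4 encode polymerase subunits (*Polr2B*, *Polr2F*, *Polr2H* and *Polr2J*). The share was 26.2% (95% exact binomial interval 13.9 to 42.0, which covers counting error only), against 10.1% of all protein-coding genes. Some candidate, strong or weak, lay at 29 of the 42 promoters (69.0%), against 46.5% of all protein-coding genes. Each of the 29 had a region of its own, and no region was shared between members. No test was made of these shares, since the genes were chosen as a set with earlier results of these data known.

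The median signal was also higher over the members with a candidate than over all such genes. Their strongest promoter candidates had a median signal of 43.8 (29 members), against 28.8 over the 6482 protein-coding genes that had one. With 0 for genes without a candidate the medians were 28.4 over all 42 members and 0 over all genes. The top of the genome was not among them, since the strongest member had 156 and the strongest promoter of any gene 771.

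**Figure D1:**
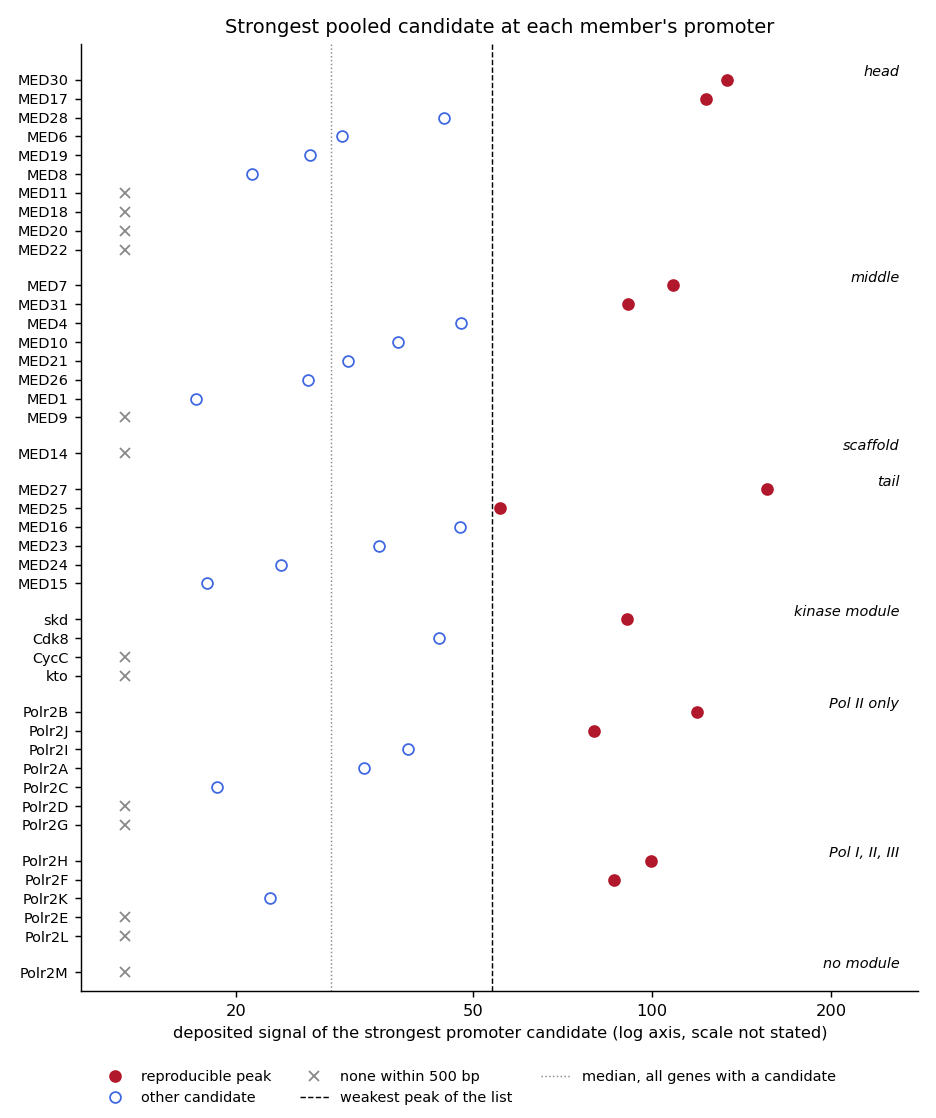
Deposited signal (log axis) of the strongest pooled candidate within 500 bp of a TSS, 1 point per member, grouped by module, with the 11 reproducible peaks filled, the 18 other candidates open and crosses for the 13 members without one. The dashed line marks the weakest peak (53.8) and the dotted line the median of all genes with a candidate (28.8), and each module with more than 1 member has at least 1 filled point.

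In the head module, which contacts the polymerase, 2 of 10 genes were occupied. *MED28* and *MED30* are counted here, although their place in the complex is debated. *MED30* (FBgn0035149), a subunit found in animals, had the peak 3L:654083-654478 with a signal of 134, rank 284 of the pooled list. Its signal was 51.8 (rank 272) in replicate 2 and 85.9 (rank 285) in replicate 4, so that both libraries placed it alike. *MED17* (FBgn0038578), a core subunit of the head, had the peak 3R:18188716-18189111 with a signal of 123 and rank 348. It had 42.9 (rank 429) in replicate 2 and 79.7 (rank 335) in replicate 4, again near the top of both lists. A second candidate of the *MED17* promoter, 41 bp inside the gene, reached only 22.4. *MED28* had the strongest of the other head candidates, with 44.7 and the summit 195 bp inside the gene in coding sequence, followed by *MED6* (30.1), *MED19* (26.7) and *MED8* (21.3). *MED19* is known in flies as a cofactor of Hox proteins. *MED11*, *MED18*, *MED20* and *MED22* had no candidate at the promoter.

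In the middle module 2 of 8 genes were occupied. *MED7* (FBgn0051390), which forms the hinge of the module with MED21, had the peak 3R:10760906-10761301 with a signal of 108 and rank 463. Its signal was 38.4 (rank 536) in replicate 2 and 63.8 (rank 563) in replicate 4. *MED31* (FBgn0037262), one of the most conserved subunits, had the peak 3R:4641576-4641971 with a signal of 91.0 and rank 677. It had 33.9 (rank 688) in replicate 2 and 61.5 (rank 607) in replicate 4. The libraries thus placed both middle genes close to their pooled ranks, which come from these same libraries. *MED21*, the partner of MED7 in the hinge, had only 30.8 and rank 5301. *MED4* (47.7) and *MED10* (37.4) were also below the peaks, as were *MED26* (26.4), whose mammalian counterpart recruits elongation factors, and *MED1* (17.2), whose mammalian counterpart binds nuclear receptors. *MED9* and the scaffold gene *MED14* had no candidate at the promoter.

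All 6 tail genes had a candidate, and 2 of them were occupied. *MED27* (FBgn0037359) had the strongest peak of all members, 3R:5654829-5655224, with a signal of 156 and rank 195. It had 59.7 (rank 184) in replicate 2 and 94.8 (rank 221) in replicate 4, the highest of all members in each. *MED25* (FBgn0038760), which contacts activators, had the weakest peak of the members, 3R:20008664-20009059, with a signal of 55.6 and rank 1755 of the 1872 peaks. Its summit lay in regions with 19.3 (rank 2096) in replicate 2 and 33.8 (rank 2052) in replicate 4, outside the 1872 strongest of each. *MED16* (47.6) was next below the threshold, and *MED23* (34.8), *MED24* (23.8) and *MED15* (17.9), whose mammalian counterpart is a target of the sterol regulator SREBP, were lower.

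In the kinase module 1 of 4 genes was occupied. *skd* (FBgn0003415) encodes MED13, which ties the kinase module to the rest of Mediator. Its peak 3L:21027591-21027986 had a signal of 90.6 and rank 689, with 34.6 (rank 660) in replicate 2 and 54.9 (rank 811) in replicate 4. *Cdk8*, the kinase itself, had a candidate of 43.8 with its summit 43 bp upstream of the TSS, below the peaks. The genes of the other two proteins of the module, *CycC* (its cyclin) and *kto* (MED12, which activates the kinase), had no candidate at the promoter.

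Of the 7 genes for subunits particular to RNA polymerase II, 2 were occupied. *Polr2B* (FBgn0262955), the second largest subunit, had the peak 3R:14125547-14125942 with a signal of 119 and rank 366. It had 38.9 (rank 517) in replicate 2 and 79.3 (rank 339) in replicate 4. *Polr2J* (FBgn0032634) had the peak 2L:17410280-17410675 with a signal of 79.7 and rank 900. It had 21.3 (rank 1746) in replicate 2 and 58.8 (rank 689) in replicate 4, the widest rank ratio among the occupied members (2.53). *Polr2A*, the largest subunit, which carries the C-terminal repeat domain, had 32.8. *Polr2C*, which pairs with Polr2J in the enzyme, had 18.6, and *Polr2I* had 38.9. *Polr2D* and *Polr2G*, which form the stalk, had no candidate.

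Of the 5 genes for subunits shared by RNA polymerases I, II and III, 2 were occupied. *Polr2H* (FBgn0037121) had the peak 3L:21728578-21728973 with a signal of 99.4 and rank 559, and 35.6 (rank 625) in replicate 2 and 62.2 (rank 596) in replicate 4. *Polr2F* (FBgn0003275) had the peak 3R:5371513-5371908 with a signal of 86.3 and rank 758, and 27.0 (rank 1108) in replicate 2 and 62.9 (rank 582) in replicate 4. Replicate 2 thus placed *Polr2F* lower than replicate 4 did, and placed *Polr2H* about the same. *Polr2K* had a weak candidate (22.8) in its coding sequence, and *Polr2E* and *Polr2L* had none. *Polr2M*, left without a module here, had none either. Occupied and unoccupied genes thus stood side by side in each module with more than 1 gene, and the numbers per module are too small to rank the modules.

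Few members lay near the threshold. Above it came *MED25* with 55.6 and then a step to *Polr2J* with 79.7, and below it *MED4* with 47.7 and *MED16* with 47.6. Compared with every gene that had a promoter candidate, the 11 occupied members ranked from 181 to 1338 of 6482. Their median signal was 99.4, against 81.8 over the 1411 occupied genes.

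**Figure D2:**
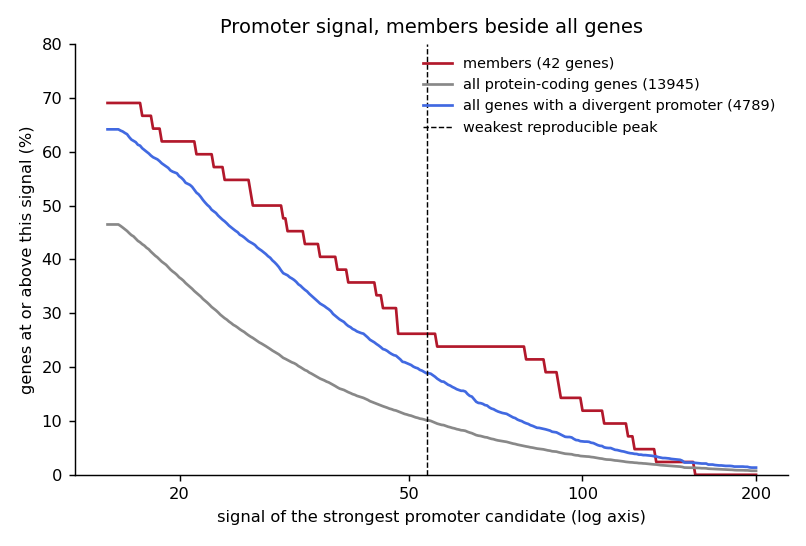
Share of genes (%) whose strongest promoter candidate is at or above a given signal (log axis), for the 42 members, all 13945 protein-coding genes and the 4789 with a divergent promoter. At the dashed line, the weakest reproducible peak, the members stand at 26.2%, all genes at 10.1% and genes with a divergent promoter at 18.9%.

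Most members have a divergent promoter, in which a second gene starts on the opposite strand shortly upstream. With a partner TSS within 1000 bp, 29 of 42 members were divergent (69.0%), against 4789 of 13945 genes (34.3%). Of the divergent members 10 of 29 were occupied (34.5%, 95% exact interval 17.9 to 54.3), against 18.9% of all genes with a divergent promoter. Of the 13 members without one only *Polr2F* was occupied (7.69%, 0.195 to 36.0), against 5.55% of such genes. Candidates of any strength were present at 22 of 29 divergent members, against 64.1% of divergent genes, and at 7 of the 13 others, against 37.2%. The interval of the divergent members covers counting error only, and the 18.9% of all divergent genes lies near its lower end, so no conclusion is drawn from it. The part of divergent promoters in the share of occupied members was not tested.

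The peaks of the 10 divergent members lay within 500 bp of the partner's TSS too, so each counts for a pair of genes. *MED27* shares its promoter with *elm* (278 bp between the start sites), *MED30* with *Rev1* (274 bp), a DNA polymerase for damaged templates, and *MED17* with CG12321 (365 bp). *MED7* shares it with *Cap-H2* (278 bp), a condensin subunit, *MED31* with CG9775 (125 bp), and *MED25* with *Hs6st* (435 bp), which sulfates heparan chains. *skd* is paired with *Pdss2* (481 bp), an enzyme of ubiquinone synthesis, *Polr2B* with *140up* (243 bp), *Polr2H* with CG11247 (126 bp) and *Polr2J* with CG15141 (235 bp). None of these partners is itself a member. The peaks cannot be assigned to 1 gene of a pair from these lists.

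Where the summit fell within a pair differed between members. By annotation 8 of the 11 summits were intergenic, that of *MED31* lay in an intron of CG9775, that of *Polr2H* in the 5′ UTR of CG11247 and that of *Polr2F* in introns. All 11 summits were upstream of the member's TSS, by 46 bp in *Polr2B* to 355 bp in *skd*, with a median of 112 bp. The median distance to the TSS without regard to side was 156 bp over all 1411 occupied genes. In 8 of the 10 pairs the summit lay between the start sites, and in *MED31* and *Polr2H* it lay past the partner's nearest TSS, 64 and 30 bp from it, but before another annotated TSS of the partner. The shares of upstream, intergenic and in-between summits over all occupied genes were not computed. These counts are therefore not read as traits of the members. In 6 pairs the summit was nearer to the member's TSS and in 4 to the partner's (*MED30*, *MED31*, *Polr2H* and *skd*). If each peak counts only for the gene with the nearest TSS, those 4 drop out and 7 members of 42 are occupied, against 979 of all genes.

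**Figure D3:**
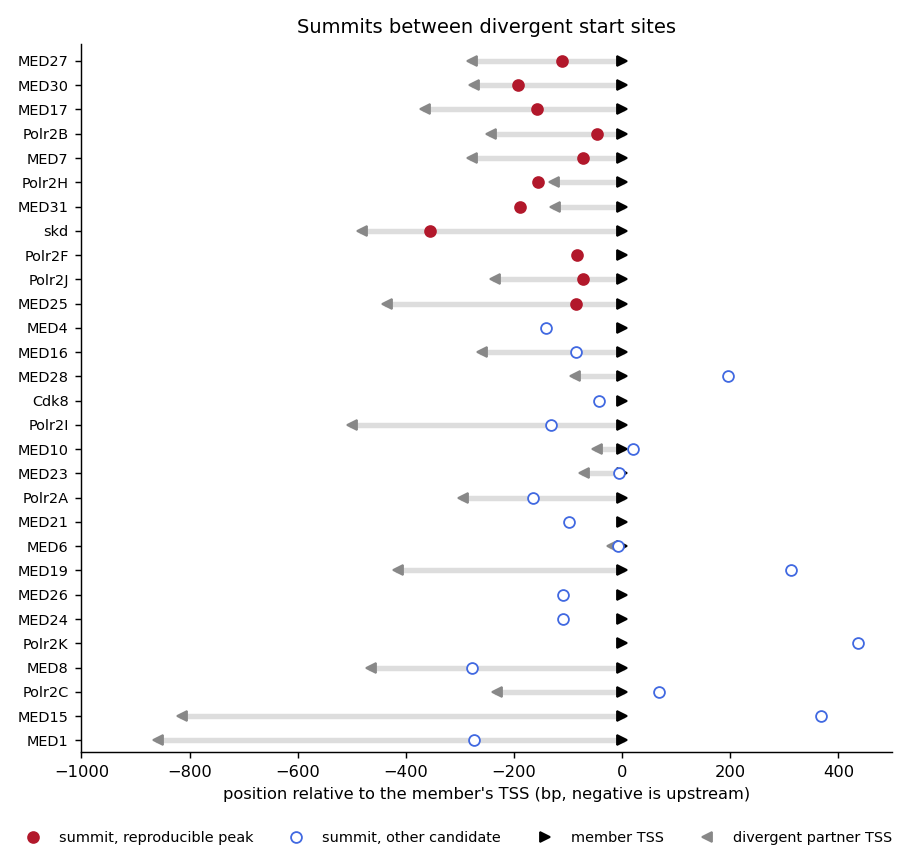
Position of the summit relative to the member's TSS (bp, negative is upstream) for the 29 members with a candidate, ordered by signal from the top. Black triangles mark the member TSS, grey triangles the nearest TSS of a divergent partner, filled circles peaks and open circles other candidates. All 11 filled circles are upstream of 0, and 12 of the 18 open circles are. The upstream share over all genes was not computed.

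The *Polr2F* peak had another setting. It has no divergent partner, and its summit lay 84 bp upstream of the *Polr2F* TSS within introns of CG31542 and CG34277, which overlap the gene. It was also the occupied window with the highest GC content.

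The candidates below the threshold lay less uniformly. Their summits ran from -277 to 437 bp relative to the TSS, and those of *MED15*, *MED19*, *MED28* and *Polr2K* were in the member's own coding sequence. Partner start sites were closer among the divergent members without a peak, with a median of 164 bp (19 members), against 276 bp in the 10 with one. The 8 with a partner within 100 bp are *MED6* with *Naa80* (19 bp), *CycC* with *UQCR-C1* (26 bp), *Polr2D* with *moi* (43 bp), *MED10* with *PDCD-5* (46 bp), *MED20* with *Trf* (47 bp), a TBP-related factor, *MED23* with *Gmer* (71 bp), *MED18* with *Gcna* (74 bp) and *MED28* with CG4553 (88 bp). None of the occupied members had its partner that near, the shortest distance there being 125 bp. The share of all occupied or other divergent genes with a partner within 100 bp was not computed. Such near partners do occur at occupied genes, where the distance ran from 2 bp with a lower quartile of 218 bp. The lower quartile over all divergent genes was 182 bp. The lack of near partners in the 10 is therefore not read as a trait of the members. Over all genes the medians did not show the order seen in the members. The median distance was 278 bp in the 903 occupied divergent genes, against 303 bp in all 4789 divergent genes, occupied or not. *Polr2I* lies 500 bp from *su(Hw)*, an insulator protein gene, and their shared promoter had a candidate of 38.9.

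The 2 libraries ranked most occupied members alike. Each of the 11 summits was held by regions of both libraries, and 8 of the 11 had ranks within a factor of 1.5 of each other. Over the 11, Spearman's rho between the ranks was 0.91 and Pearson's r between log2 signals was 0.86, given as a description, since IDR chose these peaks for agreement between the same libraries. Replicate 4 ranked 7 of them higher and replicate 2 ranked 4 higher. Among the 18 other members with a candidate, 10 were held in both replicates. Of these 6 had ranks within a factor of 1.5, with a median rank ratio of 1.32, against 1.20 for the occupied members, and rho over the 10 was 0.48. Since IDR chose the peaks for agreement, this contrast with the occupied members was largely fixed in advance. The same shares over all peaks and all promoter candidates were not computed. The candidates of *MED1*, *MED6*, *MED8*, *MED10*, *MED15*, *Polr2C* and *Polr2K* had their summit in no region of replicate 2, and that of *MED24* in none of replicate 4. *Polr2C* and *Polr2K* nevertheless had another region of replicate 2 at the promoter, at ranks 15837 and 16411.

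**Figure D4:**
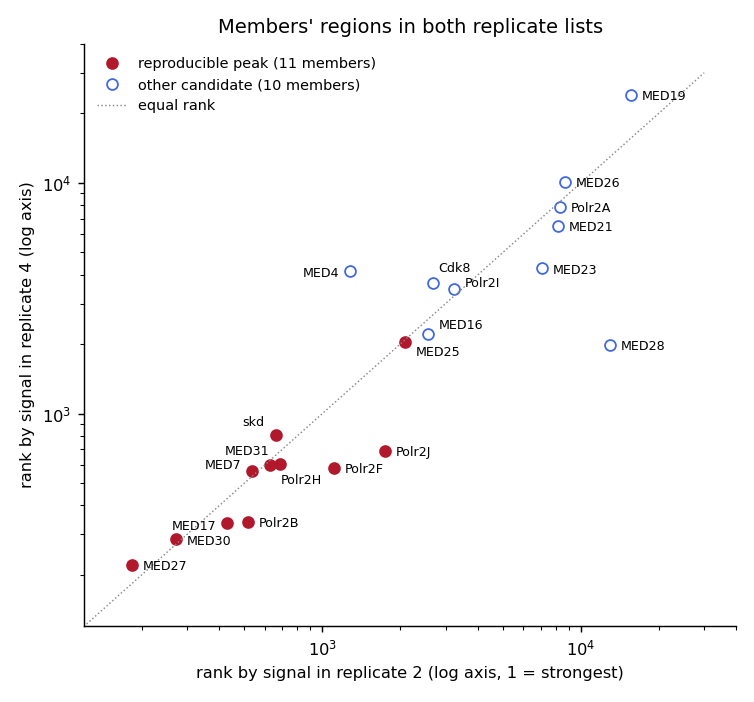
Rank by signal in replicate 2 and in replicate 4 (log axes, 1 is the strongest of 30000 regions) of the region that holds each member's pooled summit, for the 21 members with a region in both lists. Filled points are the 11 reproducible peaks and open points the 10 other candidates. Of the filled points 8 lie within a factor of 1.5 of equal rank and *Polr2J* (1746 and 689) lies farthest from it, while the open points of *MED28* (12963 and 1991) and *MED4* (1283 and 4133) lie farther still.

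Each replicate was then read alone, with its 1872 strongest regions. In replicate 2 the summit of such a region lay at 12 of the 42 promoters, the 11 occupied members and *MED4*, against 9.88% of all protein-coding genes. In replicate 4 it lay at 10, the occupied members without *MED25*, against 9.91%. *MED4* ranked 1283 in replicate 2 and 4133 in replicate 4. *MED28* stood the other way round, with 12963 in replicate 2 and 1991 in replicate 4. Each side is a single library, so these differences were not checked by replicates.

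The sequence at the summits of the occupied members was poor in G and C. Within 50 bp on either side of the 11 summits the median GC content was 28.7% (21.8 to 41.6), against 30.7% in all 944 promoter peaks that are the strongest region of some gene, the 11 included, and 39.6% in 4150 other promoter candidates. In flanks of the same width, 300 bp away on either side, it was 49.0% at these members and 45.5% at the 944 peaks. The 18 other member candidates had a median of 35.1%, with a wide range from 14.9% in *Polr2I* to 58.4% in *MED6*. The longest run of A and T in these windows had a median length of 13 bp at the occupied members (5 in *Polr2F* to 17 in *Polr2J*), against 11 bp in all promoter peaks and 8 bp in the other promoter candidates. Among the printed windows the longest runs are those of *MED7* (15 bases) and *MED17* (14 bases).

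**Figure D5:**
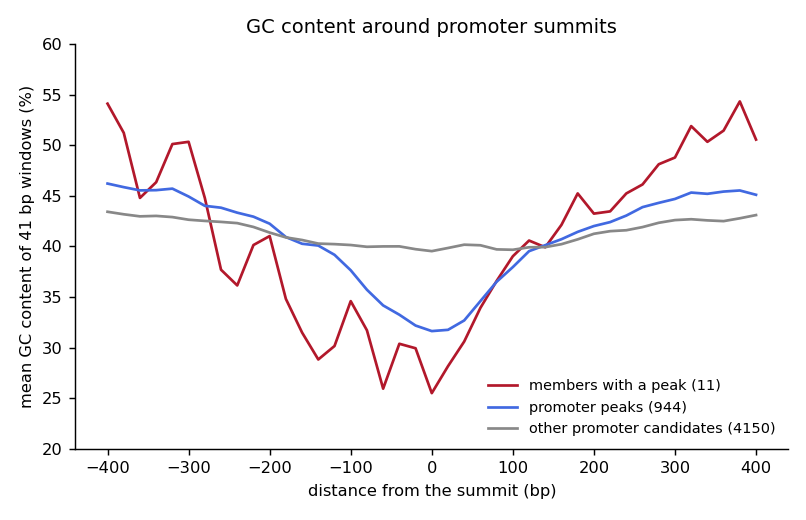
Mean GC content (%) of 41 bp windows at distances from the summit (bp, along the forward strand) for the 11 occupied members, the 944 promoter peaks and the 4150 other promoter candidates. The members fall to 25.5% at the summit, the promoter peaks to 31.6%, and the other candidates stay at 39.5%. With 11 windows the member line is uneven.

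Motifs known from fly promoters were looked up in the same windows. Searched on both strands within 50 bp of the summit, the replication element TATCGATA was in none of the 11 occupied members, against 2.33% of all promoter peaks and 5.56% of windows centred on the TSS of every protein-coding gene. The shorter TCGATA, which the longer word contains, was in 1, *Polr2F*, 13 bp from the summit, against 7.94% of promoter peaks and 16.1% of TSS windows. Motif 1, by its core GGTCACACT, was in none of the 11, against 0.742% of promoter peaks and 4.37% of TSS windows, and in the candidate of *MED23*. The E-box CAGCTG was in none (3.60% and 9.34%), CACGTG was in *MED17* (1.38% and 1.98%), and GAGAG was in none (8.47% and 11.5%). TATAAA was in 3, *MED17*, *Polr2H* and *Polr2J*, or 27.3%, against 26.4% of promoter peaks and 17.0% of TSS windows. These are matches of letters, and no match says only that the word is not in that window.

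Words of 7 bases were also taken from the other peaks, ranked by their excess at the summit over the flanks, and looked up at the members. The 3 words that led this ranking differed in direction at the members. TTAAAAA (or TTTTTAA) was in 5 of the 11 occupied members, against 1 of the 18 other member candidates, 16.6% of the 1861 other peaks and 11.1% of the other promoter candidates. AAAATAT (or ATATTTT) was in none of the 11, against 5 of the 18, 18.0% of the other peaks and 11.5% of the other promoter candidates. TAAAATA (or TATTTTA) was in 1 of the 11, against 5 of the 18, 14.3% and 8.43%. None of these 3 words was in all occupied members.

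Outside the promoters, the genes of the members held no peak. A peak lay in the body of 3.74% of all protein-coding genes. Weaker candidates lay in the bodies of 15 of the 42 members, against 36% of all protein-coding genes, which is about the same share, and the median gene length was 1162 bp over the members and 2166 bp over all genes. There were 26 such candidates in all, of which *skd* held 8 and *MED26* held 3. *skd* is also the longest gene, with 34621 bp, and its strongest internal candidate (30.2) lay in an intron 14764 bp from the TSS. The strongest internal candidate of any member was that of *MED20* (42.9), in its own 3′ UTR, 973 bp from the TSS.

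The 13 members without a promoter candidate had the nearest summit 606 bp (*Polr2M*) to 4150 bp (*Polr2G*) away, with a median of 1589 bp. For *MED18* and *Polr2G* the nearest was a reproducible peak, 3956 and 4150 bp away, with signals of 110 and 88.1. Of the 13, 3 had a region of replicate 2 at the promoter that was not in the pooled list, *Polr2D* at rank 4783, *Polr2E* at rank 4896 and *kto* at rank 16777. *MED15* had its own weak candidate of 17.9, while a peak with a signal of 118 (2L:472260-472655) lay 555 bp from its TSS, at the promoter of its divergent partner CG4297. It counts for *MED15* if the window is 1000 bp wide on each side.

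Other genes of the transcription machinery were read in the same way, from lists chosen with earlier results known. Of 37 symbols listed for general transcription factors, which place the polymerase at the start site, 35 were matched to a gene, and 7 of these were occupied (20%, 95% exact interval 8.44 to 36.9). They were *Ssl1* (signal 496, a peak shared with *Chro*), *Taf5* (95.9), *TfIIA-S* (82.3), *TfIIA-L* (74.0), *TfIIB* (68.9), *Taf2* (65.3) and *mrn* (60.5). *Tbp*, which binds the TATA box, had no candidate at its promoter. Of 29 symbols listed for elongation 24 were matched, and 7 of these were occupied (29.2%, 12.6 to 51.1), with *TH1* of the pausing factor NELF (113) and the kinase gene *Cdk12* (109) first, then *lilli* (96.2), *Nelf-E* (85.0), *EloB* (74.7), *EloA* (64.0) and *dre4* (61.3). The interval of the general factors holds the 10.1% of all protein-coding genes, and that of the elongation genes lies above it. Both intervals cover counting error only and are not read as tests. No test was made of either list, and they do not stand for the transcription machinery as a whole.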

How the data were processed

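ChIP-seq regions of 2 libraries were used, biological replicates 2 and 4 of 1 group, each with technical replicate 1. Per the labels' protocols, chromatin was sonicated to 200 to 800 bp. The authors deposited peak lists, and per the deposited read-me files each library's list came from its own alignments with 1 control alignment. The pooled list used both libraries with that control, and IDR on these lists gave the reproducible one. The signal of each region is the value the authors deposited, on a scale that is not stated, and it served to rank and describe regions within a list. The aligner, caller and IDR cut-off were not given in the sources used here. Control reads were not analysed here. Of 8 lists, the 4 on dm6 were used, and no coordinates were converted. Both replicate lists hold exactly 30000 regions, so their ranks refer to equal lengths.

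Genes came from Ensembl release 115, on the same assembly as dm6, without transposable elements, and all regions end inside the arm lengths. Windows were read from the RefSeq Release 6 genome. The members and lists were chosen with earlier results of these data known, so shares are given with no test, beside those of all genes. Every member is named, with the partner of each occupied one, and windows are printed for occupied members only. Intervals are exact Clopper-Pearson intervals at 95% and cover counting error only; depth is unknown. The 2 libraries are called biological replicates by the labels. Scripts ran in python 3.11.15 with pandas 2.3.3, numpy 2.4.6 and scipy 1.17.1, and were tested on simulated data. Alternatives were windows of 250 and 1000 bp, overlap by 1 base, the 936 strongest peaks, each replicate alone, the most upstream TSS, the nearest TSS only and other definitions of a divergent promoter. 1 further gene list is not reported here, for a reason unrelated to its values, so the lists given are not all that were read.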

Additional observations from a re-analysis of the deposited data

How the results depend on the processing

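The count of 11 occupied members was 7 when each peak counted only for its nearest TSS (979 of all genes), without *MED30*, *MED31*, *Polr2H* and *skd*. Beside 1411 of all genes, it was 10 with a 250 bp window (without *skd*; 1096 of all genes) and with the 936 strongest peaks (without *MED25*; 769), 12 with a 1000 bp window (1600) and with an overlap of 1 base (1492), *MED15* added in both, and 11 with the most upstream TSS (1241). It was 10 without replicate 2 (without *MED25*, 1382 of all genes) and 12 without replicate 4 (with *MED4* added, 1378). The 29 members with any candidate (6482 of all genes) became 25 with 250 bp (4898) and 33 with 1000 bp (8105). Without replicate 2 there were 28 (6497), with *MED24* lost. Without replicate 4 there were 27 (6388), with *MED1*, *MED6*, *MED8*, *MED10* and *MED15* lost and *Polr2D*, *Polr2E* and *kto* gained. The median signal, 43.8, was 44.7 with a 250 bp window and 42.9 with 1000 bp. Divergent members numbered 29 in the main setting (4789 of all genes), 27 with partners within 500 bp (3588) and 30 with partners of any gene type (5189). In each setting 10 occupied members were divergent, against 903, 801 and 938 of all genes in the same order. No paired analysis was possible because there is 1 group. Depth is unknown, the scale of the signal is not given, whole embryos average over cell types, and 11 occupied genes leave wide intervals.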

Other observations

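The occupied members were spread unevenly over the arms. On 3R 7 of 15 members were occupied, against 11.2% of all genes there, on 3L 3 of 13 (11.8%) and on 2L 1 of 4 (10.8%). None of the 6 on 2R (8.45%), the 3 on X (7.97%) and the 1 on chromosome 4 (3.75%) was occupied. No test was made, and the counts per arm are small.

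Some promoters held more than 1 candidate. *Polr2J* had a second one with a signal of 32.0, 273 bp upstream of the TSS, and *MED8* had 3 in all, with 21.3, 20.2 and 16.6. *MED19* and *MED10* had second candidates of 22.0 and 19.8. *MED25* had its own promoter region in replicate 2 at rank 1711, apart from the region at rank 2096 that holds its pooled summit.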
